A study of Mus musculus with 21 samples.

Results

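The T cell receptor (TCR) reads antigen through a pair of variable chains that cannot signal by themselves. The CD3 chains carry the signal across the membrane: CD3 gamma, delta and epsilon pair with the receptor, and CD3 zeta joins as a dimer. Each bears short tyrosine motifs called ITAMs, which the kinases Lck and Fyn phosphorylate. The kinase Zap70 then docks on the phosphorylated ITAMs and marks the scaffolds Lat and SLP-76, from which calcium, Ras and adhesion signals branch. Cd5 is a surface receptor that damps TCR signals and whose level is known to follow their strength.

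The 10 genes described here are Cd3d, Cd3e, Cd3g, Cd247, Lck, Fyn, Zap70, Lat, Lcp2 and Cd5, taken by symbol from the 51201 genes in each deposited gene count table. All 10 passed the filter on low counts in every comparison. Their roles are those named above, with Cd247 coding for CD3 zeta and Lcp2 for SLP-76. They were measured by RNA sequencing of splenic T cells from C57BL/6J mice at postnatal day 35. In L-gp130 mice (L-gp130fl/+;CD4Cre+/-), Cre switched on an allele of gp130 that signals without a ligand. Il6st codes for gp130, which transmits the signals of interleukin-6 and its relatives. Controls were CD4Cre+/- mice, so the Cre transgene was present in every animal. Cre is driven by the Cd4 promoter, which is active from the thymic stage at which CD4 and CD8 are both expressed, so both lineages are targeted. There were 6 L-gp130 and 6 control CD4 libraries, and 3 L-gp130 and 6 control CD8 libraries, each with its own mouse number within its group. The labels do not say whether a CD4 and a CD8 library came from the same mouse. The main tests across cell types did not pair them. Males gave 4 of the 6 CD4 libraries of L-gp130 mice and 1 of the 6 of controls, by their labels. For CD8 cells they gave 2 of 3 in L-gp130 mice and 4 of 6 in controls. CD4 cells were taken by positive and CD8 cells by negative magnetic selection, so the selection method goes with the cell type and cannot be told apart from it.

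The labelled cell types matched their coreceptor genes. Cd4 lay between 520.0 and 785 CPM (counts normalised to library size) in CD4 libraries and between 3.62 and 13.4 CPM in CD8 libraries, and Cd8a lay between 817 and 1264 CPM in CD8 libraries. In CD4 libraries Cd8a was at 92.3 CPM in L-gp130 replicate 1, at 14.3 to 28.7 CPM in the other L-gp130 libraries and at 7.61 to 13.8 CPM in controls, so every L-gp130 library was above every control. On the second principal component of the CD4 set L-gp130 replicate 1 was the extreme one, with a score of 43.8 against -27.1 to 12.8, and it had the highest summed level of monocyte and macrophage markers. It was also the lowest of its group for 9 of the 10 genes, all but Lat. The label of control CD4 replicate 5, female, went against its Xist and Y-linked reads. Control CD8 replicates 1 to 3 and 4 to 6 separated on the second principal component. Libraries of CD4 cells held 17781085 to 21226510 counts for L-gp130 mice and 27855757 to 35869208 for controls. Those of CD8 cells held 17217364 to 19476881 counts for L-gp130 mice and 17719183 to 19286396 for controls. In bulk RNA, a lower level of a T cell gene through fewer T cells and through less RNA per cell cannot be told apart.

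The stretches that code for the ITAMs are shown because the 4 CD3 genes did not move alike. Cd3d, Cd3e and Cd3g code for 1 ITAM each and Cd247 for 3, so a change of Cd247 concerns the chain with the most motifs. The sequences run 5′ to 3′, were read from GENCODE M21 transcripts on GRCm38, and have the codons of the 2 ITAM tyrosines in capitals. The spans given are those of the coding stretch on the genome and can hold an intron.
Cd3d ITAM 1 (chr9:44986095-44986311, plus strand): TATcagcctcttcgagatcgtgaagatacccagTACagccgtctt
Cd3e ITAM 1 (chr9:44999549-45000440, minus strand): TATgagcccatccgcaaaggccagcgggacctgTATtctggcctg
Cd3g ITAM 1 (chr9:44970735-44971268, minus strand): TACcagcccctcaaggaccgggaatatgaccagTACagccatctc
Cd247 ITAM 1 (chr1:165856451-165857454, plus strand): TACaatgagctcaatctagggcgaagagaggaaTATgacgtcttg
Cd247 ITAM 2 (chr1:165858473-165859260, plus strand): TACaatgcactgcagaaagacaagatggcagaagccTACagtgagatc
Cd247 ITAM 3 (chr1:165859819-165861042, plus strand): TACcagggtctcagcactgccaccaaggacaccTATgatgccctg

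Levels per transcript length were compared with the authors' TPM, which scale reads to transcript length and to the library. In L-gp130 CD4 cells Lat led with 775.6 ± 70.6 TPM (SD, n = 6), and Lck, Cd3g and Cd3e followed with 563, 550.4 and 460.2 TPM. In control CD4 cells Lat had 674 ± 81.9 TPM (SD, n = 6), and its range overlapped that of Cd3g, next in order. In L-gp130 CD8 cells Lat and Lck, at 568 and 552 TPM, stood above Cd3g, at 458 TPM, without overlap between Lck and Cd3g. In control CD8 cells Cd3g, Lck and Lat overlapped at the top, at 580.3, 559.5 and 550.5 TPM. Lcp2 had the lowest mean of the 10 genes in all 4 groups, at 185 TPM in L-gp130 CD4, 129 TPM in control CD4, 104 TPM in L-gp130 CD8 and 86.8 TPM in control CD8 cells. In both CD4 groups its range overlapped that of Zap70, next above it. Cd247 ranked 8 in L-gp130 CD4 cells, where its range overlapped that of Fyn above it, and 6 in control CD4 cells, where it overlapped that of Cd5 below it. By its mean Cd5 moved the other way, with rank 5 in L-gp130 and 7 in control CD4 cells. Its range overlapped that of Cd3d below it in L-gp130 and that of Cd247 above it in control CD4 cells.

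**Figure D1:**
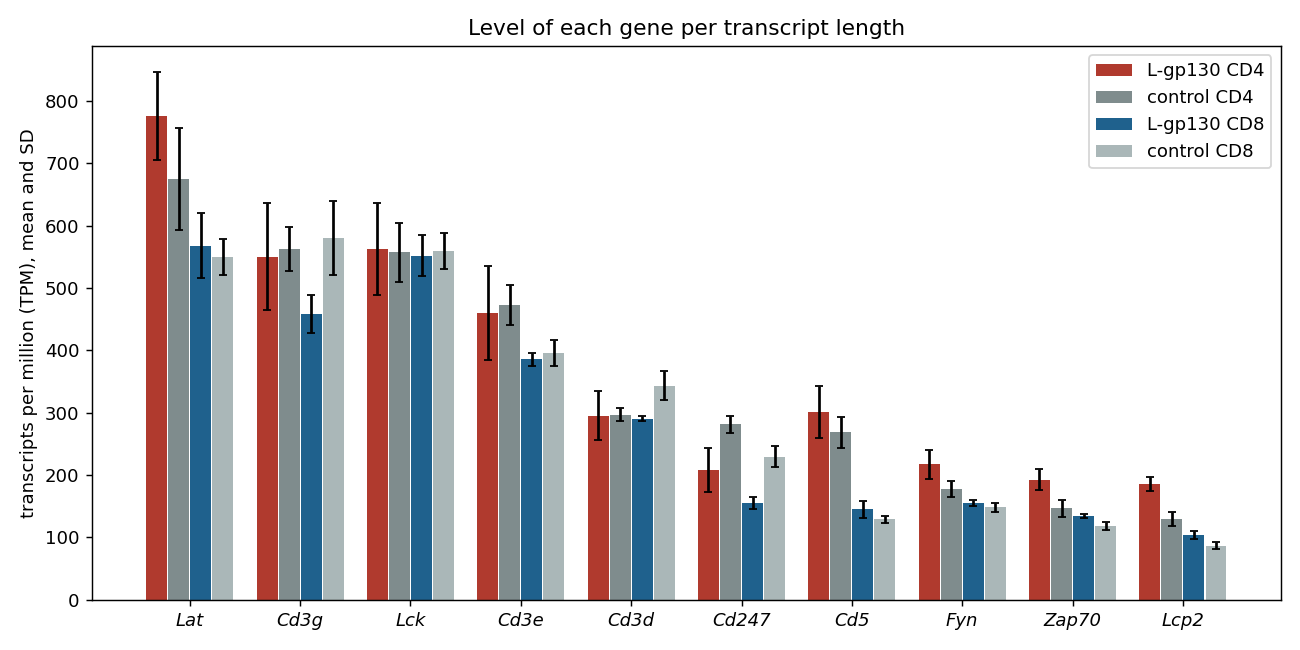
Mean TPM (y axis) of each gene (x axis) in L-gp130 CD4, control CD4, L-gp130 CD8 and control CD8 cells, with error bars of 1 SD over 6, 6, 3 and 6 libraries. Lat, Cd3g, Lck and Cd3e form the upper group and Lcp2 the low end in every group.

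In CD4 cells, expression of the L-gp130 allele went with higher Lcp2, Zap70 and Fyn and lower Cd247, while the 3 other CD3 chains, Lck, Lat and Cd5 did not pass the test. Of the 10 genes, 3 rose and 1 fell at an adjusted p under 0.05, beside 18.9% of 15016 genes called in all, 11.1% higher and 7.75% lower. The median log2 fold change of the 10 genes was 0.16, against -0.005 over all genes tested. In CD4 cells 13.5% of all genes had groups that did not overlap, 7.68% higher and 5.85% lower. Fold changes are L-gp130 over control, from edgeR's 2-sided quasi-likelihood test with Benjamini-Hochberg adjustment and sex as covariate, with SE.

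Among the CD3 chains in CD4 cells, Cd247 had 167, 210.2 and 256 CPM in L-gp130 libraries (lowest, median and highest of 6), against 258, 273 and 312 CPM in controls. All 6 L-gp130 libraries lay below all 6 controls. Cd247 fell by 0.35 ± 0.11 on the log2 scale (adjusted p = 0.0377, edgeR). The call was lost when L-gp130 replicate 3 or 6 or control replicate 1, 2 or 5 was left out, with the smallest change, -0.22, and an adjusted p of 0.290 without control replicate 1. It was kept, at -0.31 with an adjusted p of 0.0227, without both doubted CD4 libraries, L-gp130 replicate 1 and control replicate 5.

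Cd3d had 269, 298 and 369 CPM in L-gp130 CD4 libraries, against 284, 289 and 325 CPM in controls, and Cd3g had 293, 351 and 455 CPM in L-gp130 libraries, against 316, 348 and 392 CPM in controls. Cd3e had 331, 471 and 495 CPM in L-gp130 libraries, against 389, 434 and 474 CPM in controls. The L-gp130 libraries lay on both sides of the controls for each of these genes. The log2 fold changes were 0.07 for Cd3d, 0.03 for Cd3g and 0.01 for Cd3e, with adjusted p of 0.614, 0.883 and 0.941 (edgeR). Their approximate 95% intervals spanned -0.11 to 0.25, -0.18 to 0.24 and -0.19 to 0.22, so changes of either sign within these bounds were not excluded.

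Of the kinases in CD4 cells, Zap70 had 307, 353 and 364 CPM in L-gp130 libraries, against 213, 253 and 269.7 CPM in controls. Fyn had 418, 506 and 536 CPM in L-gp130 libraries, against 351, 377 and 403 CPM in controls. For both kinases every L-gp130 library was above every control library. Zap70 rose by 0.48 ± 0.08 on the log2 scale (adjusted p = 0.00117, edgeR). Fyn rose by 0.40 ± 0.08 (adjusted p = 0.00387, edgeR). Lck, the kinase bound to the coreceptors, had 623, 781 and 877 CPM in L-gp130 libraries, against 636, 700.2 and 798 CPM in controls, with overlapping groups and a log2 fold change of 0.08 ± 0.10 (adjusted p = 0.591, edgeR).

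Of the scaffolds, Lcp2 had 389.8, 395 and 421 CPM in L-gp130 CD4 libraries, against 241, 264 and 291 CPM in controls. The lowest L-gp130 library thus stood well above the highest control. Lcp2 rose by 0.59 ± 0.06 on the log2 scale, a fold of 1.51 (adjusted p = 4.99e-05, edgeR), the largest change among the 10 genes in CD4 cells. Lat had 525, 572 and 617 CPM in L-gp130 libraries, against 401, 444 and 555 CPM in controls. The groups overlapped, and the log2 fold change was 0.24 ± 0.09 (adjusted p = 0.0919, edgeR). Lat passed the test without control replicate 2, at 0.28 with an adjusted p of 0.0307.

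Cd5 had 362, 432 and 493 CPM in L-gp130 CD4 libraries, against 322, 365 and 381 CPM in controls. All but 1 of the L-gp130 libraries were above the highest control, the exception being replicate 1. The log2 fold change was 0.23 ± 0.09 (adjusted p = 0.0809, edgeR), and without that library Cd5 passed the test at 0.26 with an adjusted p of 0.0204. The calls of Lcp2, Zap70 and Fyn held without the 2 doubted CD4 libraries, at 0.595, 0.50 and 0.42 on the log2 scale.

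Other measures moved with genotype in the CD4 libraries, and each count below stands beside the 11.1% of all genes called higher and 7.75% called lower. The summed level of 7 immediate early genes, which respond fast to stimulation and to handling, was 331 to 429.9 CPM in L-gp130 and 258 to 298 CPM in control libraries, with no overlap. Of these 7 genes 4 rose, among them Egr2 by 1.43 and Fos by 1.23 on the log2 scale. The 4 plasma cell markers tested summed to 86.2 to 186.9 CPM in L-gp130 and 36.2 to 77.3 CPM in control libraries, also with no overlap. Jchain, which joins secreted antibody units, rose by 1.77 and Derl3 by 1.36. Jchain was the largest part of these sums, with 66.3 to 163.5 CPM in L-gp130 and 20.4 to 50.9 CPM in control libraries. Mzb1 and Sdc1, also on that list, overlapped between genotypes.

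Markers of several other blood cells were lower or overlapped between the CD4 groups. The summed level of 8 B cell markers was 237 to 608 CPM in L-gp130 and 257 to 940.1 CPM in control libraries, and 4 of the 8 genes fell, among them Fcrla by 1.34 and Ebf1 by 1.24. The NK cell list (7 genes) summed to 56.0 to 142.6 CPM in L-gp130 and 79.6 to 103.6 CPM in control libraries, with 1 gene lower (Klra4, -1.62), and the dendritic cell list (6 genes) to 80.1 to 199.2 CPM and 118.4 to 191.4 CPM in the same groups, with 1 lower (Siglech, -2.17). The monocyte and macrophage list (10 genes) summed to 534 to 2594 CPM in L-gp130 and 674.9 to 1329 CPM in control libraries, with 0 genes called by edgeR, 1 at an unadjusted p under 0.05 and 1 called lower by DESeq2. Without the 2 doubted CD4 libraries, the genes called lower came to 8 of 8 for B cells, 5 of 7 for NK cells, 2 of 6 for dendritic cells and 8 of 10 for monocytes and macrophages.

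Platelet markers (5 genes) summed to 20.5 to 51.4 CPM in L-gp130 CD4 and 11.5 to 26.9 CPM in control CD4 libraries, with 1 gene higher (Gp1bb, 1.32). The 7 erythroid markers tested (6765 to 38920 CPM in L-gp130 and 4772 to 26810 CPM in control libraries) and the 5 gamma-delta T cell genes (25.3 to 86.4 CPM and 20.96 to 34.5 CPM in the same groups) had 0 called by edgeR or DESeq2, with 2 and 0 at an unadjusted p under 0.05. Of 11 other genes of the T lineage, some of which are also on the pathway lists, 1 rose (Cd6, 0.26) and 1 fell (Gata3, -0.44). The list of 9 B cell and myeloid relatives of the TCR signalling genes had 0 called genes in either direction by edgeR, with a median log2 fold change of -0.52; 3 had an unadjusted p under 0.05, DESeq2 called 1 lower, and 6 were lower without the 2 doubted libraries. The part of these measures in the changes above was not tested.

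**Figure D2:**
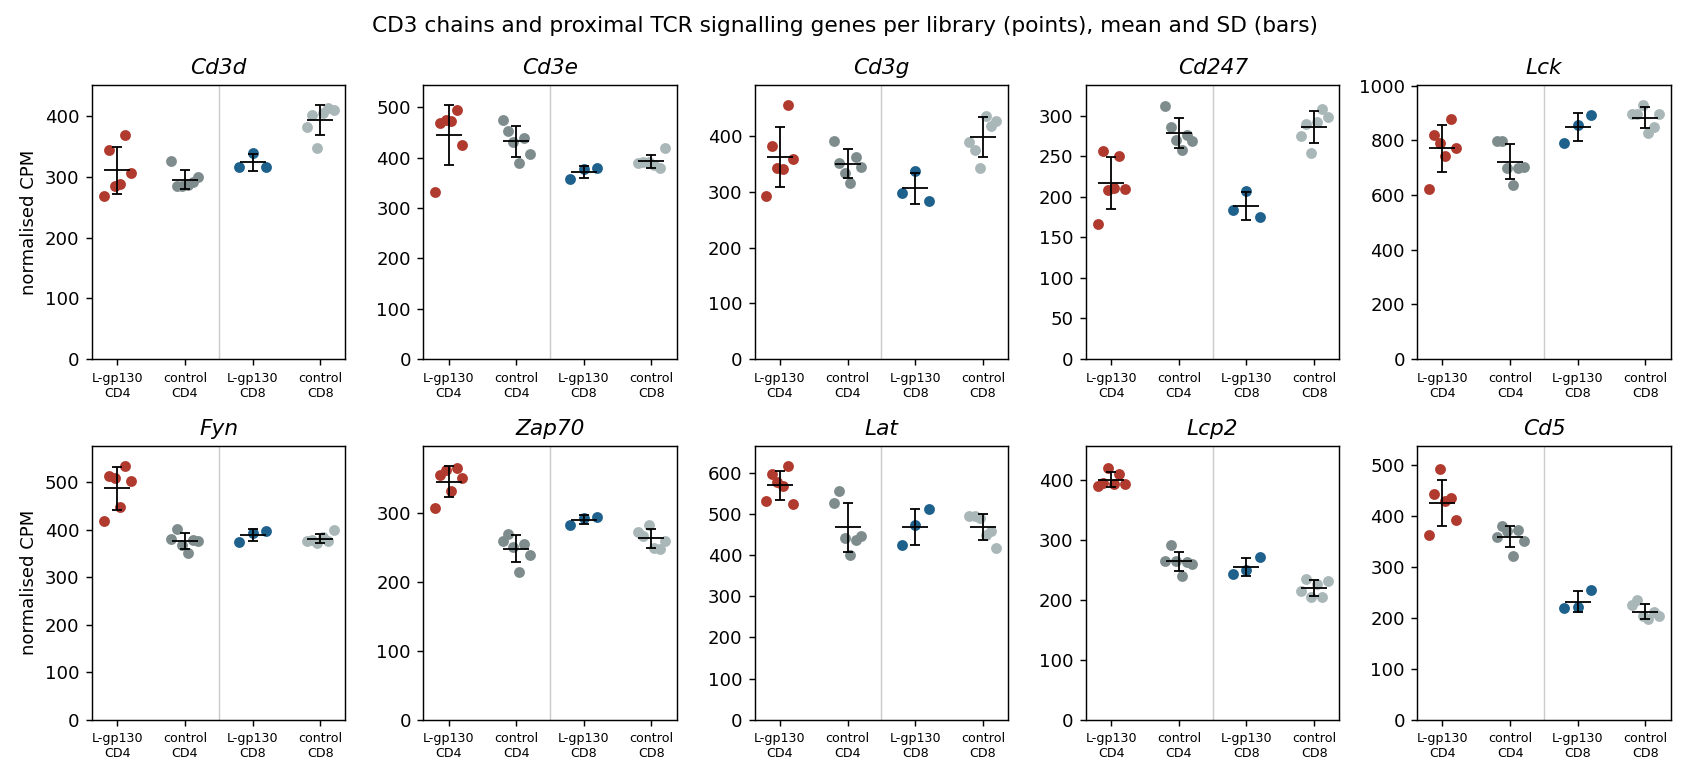
Normalised CPM per library (y axis, points) of each gene in L-gp130 CD4, control CD4, L-gp130 CD8 and control CD8 cells (x axis), with the mean and SD as black bars. Lcp2, Zap70 and Fyn of L-gp130 CD4 cells lie above every control CD4 library, and Cd247 lies below its controls in both cell types.

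In CD8 cells Cd247, Cd3g and Cd3d fell, Lcp2 rose, and Cd3e, Lck, Fyn, Zap70, Lat and Cd5 did not pass the test. That is 1 gene higher and 3 lower of 10, beside 21% of 14254 genes called in all, 10.5% in each direction. The median log2 fold change of the 10 genes was -0.03, against -0.012 over all genes tested.

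Cd247 had 183, 207 and 175 CPM in the 3 L-gp130 CD8 libraries, against 254, 291 and 309 CPM in controls (lowest, median and highest of 6). The groups were far apart. Cd247 fell by 0.60 ± 0.08 on the log2 scale, to a fold of 0.658 (adjusted p = 0.000647, edgeR), and the call held when any single library was left out. The reads of the whole Pou2f1 gene, which overlaps Cd247 on the opposite strand, came to 25.0% of those of Cd247. Reads in the shared stretch alone were not counted, so this is not the share in doubt. The unstranded libraries do not tell apart reads in that stretch.

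Cd3g had 298, 338 and 283 CPM in L-gp130 CD8 libraries, against 342, 404 and 436 CPM in controls. Cd3d had 316.1, 339.6 and 315.9 CPM in L-gp130 libraries, against 348, 403 and 414 CPM in controls. For both genes all L-gp130 libraries were below all controls. Cd3g fell by 0.38 ± 0.09 on the log2 scale (adjusted p = 0.0114, edgeR). Cd3d fell by 0.28 ± 0.07 (adjusted p = 0.0149, edgeR). Both calls were lost without L-gp130 replicate 1 (adjusted p of 0.0670 for Cd3g and 0.0831 for Cd3d) or replicate 3 (0.0724 and 0.0636), which leaves 2 libraries in that group. Cd3e had 358, 378.1 and 378.7 CPM in L-gp130 libraries, against 379.1, 390.1 and 418 CPM in controls. The groups again did not overlap, by a narrow gap, and the log2 fold change was -0.08 ± 0.05 (adjusted p = 0.328, edgeR). In CD8 cells 24.1% of all genes had groups that did not overlap, 11.7% higher and 12.4% lower.

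Lcp2 had 244, 251 and 272 CPM in the L-gp130 CD8 libraries, ordered from lowest to highest, against 204, 221 and 234 CPM in controls. All L-gp130 libraries were above the controls. Lcp2 rose by 0.22 ± 0.07 on the log2 scale (adjusted p = 0.0486, edgeR). The call was lost in 7 of the 9 fits that left out 1 library: without L-gp130 replicate 1, 2 or 3 or control replicate 1, 3, 4 or 5, with adjusted p of 0.0553 to 0.248. Zap70 had 282, 293 and 294 CPM in L-gp130 libraries, against 247, 262 and 283 CPM in controls, with a slight overlap and a log2 fold change of 0.14 ± 0.06 (adjusted p = 0.127, edgeR). Lck, Fyn, Lat and Cd5 overlapped between genotypes, with log2 fold changes of -0.06, 0.03, 0.0039 and 0.13 and adjusted p of 0.471, 0.756, 0.980 and 0.278 (edgeR).

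Markers of other cells also moved with genotype in the CD8 libraries, where 10.5% of all genes were called in each direction. The 5 gamma-delta T cell genes summed to 66.8 to 82.2 CPM in L-gp130 and 32.8 to 53.2 CPM in control libraries, with no overlap. Of these, 3 rose, among them Tcrg-C4 by 1.21 and Tcrg-C2 by 1.18. Trdc, the constant gene of the delta chain, did not rise, with 12.8 to 16.0 CPM in L-gp130 and 13.2 to 21.7 CPM in control libraries. Against control replicates 1 to 3 alone, 3 of the 5 rose and 1 fell. The 6 dendritic cell markers summed to 58.3 to 111.2 CPM in L-gp130 and 38.7 to 50.5 CPM in control libraries, with no overlap, and 1 rose (Itgax, 1.16). Itgax was the largest part of these sums, with 47.1 to 93.9 CPM in L-gp130 and 24.9 to 31.7 CPM in control libraries. The list as a whole did not shift: 3 log2 fold changes were above 0 and 3 below, with a median of 0.005. Monocyte and macrophage markers summed to 344 to 550.4 CPM in L-gp130 and 423.5 to 894.7 CPM in control libraries, and 3 of 10 fell, the complement genes C1qa by 2.76, C1qc by 2.53 and C1qb by 2.51. NK cell markers summed to 202.9 to 337.2 CPM in L-gp130 and 222.3 to 290.7 CPM in control libraries, and 3 of 7 fell, among them Ncr1 by 1.15 and Tyrobp by 0.69. Of the 11 other T lineage genes 4 fell, among them Cd2 by 0.62 and Thy1 by 0.43. The summed levels of that list were 5297 to 5696 CPM in L-gp130 and 6031 to 6701 CPM in control libraries, with no overlap.

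Lists with few or no calls in CD8 cells were those of B cells, plasma cells, platelets and red cells, and the relatives of the TCR signalling genes. B cell markers summed to 49.1 to 73.4 CPM in L-gp130 and 37.3 to 97.4 CPM in control libraries, with 0 of 8 called by edgeR or DESeq2 and 1 at an unadjusted p under 0.05. Against control replicates 1 to 3 alone 4 of the 8 fell, and against replicates 4 to 6 alone 2 rose. Plasma cell markers (5 genes, 61.5 to 334.5 CPM in L-gp130 and 19.8 to 89.8 CPM in control libraries) had 0 called by edgeR, 1 at an unadjusted p under 0.05 and 1 called higher by DESeq2. Platelet markers (17.4 to 25.1 CPM in L-gp130 and 9.70 to 28.3 CPM in control libraries) and erythroid markers (43.5 to 109.2 CPM in L-gp130 and 40.3 to 671.4 CPM in control libraries) had 0 called by either tool and 0 at an unadjusted p under 0.05. Of the 9 relatives of the TCR signalling genes 1 rose, the Src family kinase Fgr by 0.51. The part of these markers in the changes of the 10 genes was not tested.

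The immediate early genes, of which 1 of 7 rose (Egr2, 0.60), split the CD8 controls: their summed level was 1719 to 1985 CPM in L-gp130 libraries, 1544 to 1885 CPM in control replicates 1 to 3 and 398 to 791 CPM in control replicates 4 to 6. Against control replicates 1 to 3 alone, whose range overlaps that of the L-gp130 libraries, Cd247 fell by 0.53, Cd3g by 0.265 and Cd3d by 0.21 on the log2 scale, with adjusted p of 0.0019, 0.0272 and 0.0471 (edgeR). Against replicates 4 to 6 alone, they fell by 0.67, 0.48 and 0.34, with adjusted p of 0.000665, 0.00250 and 0.00550. The direction and the call of these 3 CD3 chains thus held against either set of controls. Lcp2 passed the test against replicates 4 to 6 (0.21, adjusted p = 0.0433, edgeR) and not against replicates 1 to 3 (0.23, adjusted p = 0.0621). Zap70 passed it against replicates 4 to 6 (0.20, adjusted p = 0.0370, edgeR).

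**Figure D3:**
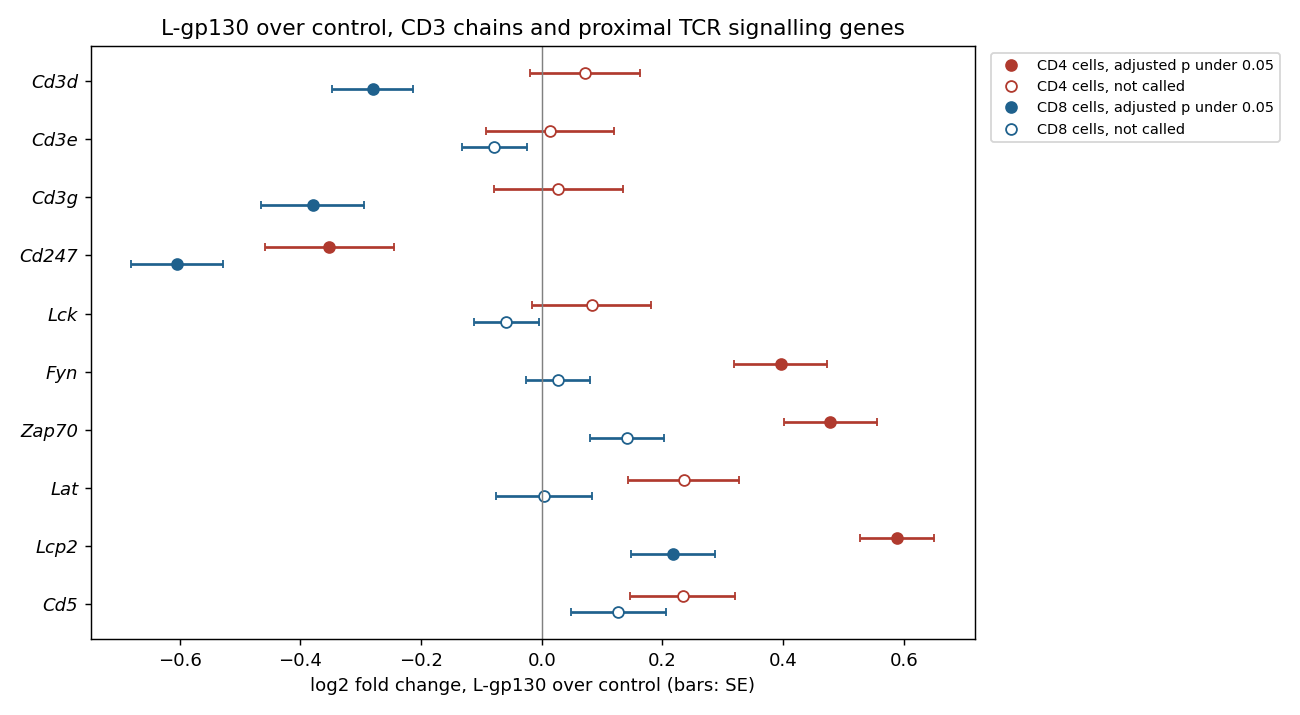
Log2 fold change of L-gp130 over control (x axis) for each gene (y axis) in CD4 cells (upper, red) and CD8 cells (lower, blue), with bars of 1 SE and filled points at an adjusted p under 0.05. Cd247 is below 0 in both cell types, Fyn and Zap70 are called in CD4 cells and Cd3d and Cd3g in CD8 cells.

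A call in 1 cell type and not in the other does not show that the effects differ, so the difference was tested over all 21 libraries. Fyn and Lcp2 passed that test: the log2 effect was higher in CD4 than in CD8 cells by 0.41 ± 0.09 for Fyn (adjusted p = 0.0128, edgeR) and by 0.38 ± 0.08 for Lcp2 (adjusted p = 0.00816). In all, 3.46% of 15758 genes passed, 1.83% with a higher and 1.62% with a lower effect in CD4 cells. Both calls were lost without L-gp130 CD8 replicate 1, at adjusted p of 0.0728 and 0.0556. The differences of Zap70 (0.35), Cd3g (0.38) and Cd3d (0.34) did not pass, with adjusted p of 0.0794, 0.0967 and 0.0975 (edgeR). Without L-gp130 CD4 replicate 1 they did, with adjusted p of 0.0223, 0.0158 and 0.0281. For Cd247, which fell in both cell types, the difference was 0.19 ± 0.14 (adjusted p = 0.493, edgeR). All 10 differences were above 0, with a median of 0.30, against 0.035 over all genes tested. The 11 other T lineage genes had a median of 0.235, with 8 above 0 and 3 below. The values of Fyn and Lcp2 thus stand beside a shift in the same direction over the whole set, whose cause was not tested.

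Each gene was also set against Cd3e of the same library, in TPM, as a description with no test. The ratio of Cd247 to Cd3e was 0.407 to 0.506 in L-gp130 CD4 and 0.581 to 0.614 in control CD4 cells. In CD8 cells it was 0.367 to 0.436 in L-gp130 and 0.515 to 0.647 in control libraries, so the ranges were apart in both cell types. The ratios of Fyn, Zap70 and Lcp2 to Cd3e were higher in L-gp130 cells with no overlap in both cell types. Over all genes tested, the ratio to Cd3e was higher without overlap for 4.54% and lower for 4.96% in CD4 cells, and higher for 15.5% and lower for 7.76% in CD8 cells. Cd3e itself averaged 385.5 TPM in L-gp130 CD8 and 396.3 TPM in control CD8 libraries. The ratio of Lcp2 was 0.372 to 0.527 in L-gp130 CD4 against 0.251 to 0.287 in control CD4 cells, and 0.2598 to 0.2815 in L-gp130 CD8 against 0.206 to 0.234 in control CD8 cells. The ratios of Cd3d, Cd3g, Lck and Lat overlapped between genotypes in both cell types. The ratio of Cd5 was apart in CD4 cells, with 0.602 to 0.746 in L-gp130 against 0.517 to 0.587 in control libraries, and overlapped in CD8 cells.

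Between the cell types, controls differed in 7 of the 10 genes, 2 higher and 5 lower in CD4 cells, beside 51.4% of 15758 genes called, 24.3% higher and 27.2% lower. Cd5 was higher in CD4 than in CD8 controls by 0.65 ± 0.07 on the log2 scale (adjusted p = 3.41e-07, edgeR), and Lcp2 by 0.18. Cd3d (-0.50), Lck (-0.44), Zap70 (-0.26), Cd3g (-0.25) and Fyn (-0.19) were lower in CD4 controls. The libraries of the 2 control groups did not overlap for Cd5, Cd3d, Lck and Fyn, as for 37.6% of all genes, 18.3% higher and 19.2% lower in CD4 cells. In L-gp130 mice, where 47.8% of genes were called (24.9% higher and 22.9% lower), 3 of the 10 differed, all higher in CD4 cells: Cd5 by 0.78, Lcp2 by 0.56 and Fyn by 0.22. Cd5 had 346 to 471 CPM in L-gp130 CD4 and 229 to 260.4 CPM in L-gp130 CD8 libraries, and 310.1 to 374.5 CPM in control CD4 against 208 to 244 CPM in control CD8 libraries. The 2 cell types did not overlap in either genotype. In L-gp130 mice Lcp2 was also apart, beside 37.7% of all genes, 19.6% higher and 18.1% lower. The comparisons between cell types and those between genotypes share libraries and are not independent of each other. Context lists also differed between the control cell types. Higher in CD4 controls were 8 of 8 B cell, 7 of 7 erythroid, 6 of 6 dendritic cell and 7 of 10 monocyte and macrophage genes, with 1 of the latter lower. Lower were 6 of 7 NK cell and 5 of 7 immediate early genes, with 1 immediate early gene higher. Their part in the differences of the 10 genes was not tested.

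The rest of the pathway was described with lists. Of the 6 genes for TCR constant chains and coreceptors, 0 passed the test in CD4 cells (median log2 fold change 0.03), while 1 (Cd8a) had an unadjusted p under 0.05 and DESeq2 called 1 higher. In CD8 cells 3 of the 6 fell, where 10.5% of all genes did: Cd8b1 and Cd8a, the CD8 coreceptor chains, by 0.67 ± 0.10 and 0.36 ± 0.08 (adjusted p of 0.00147 and 0.0112, edgeR), and Trbc2, a constant chain of the receptor, by 0.32 ± 0.06. Cd8b1 had 560.5 to 669.9 CPM in L-gp130 and 829.7 to 1148 CPM in control CD8 libraries, with no overlap. Trbc1 and Trbc2 are near-identical copies, and how reads are split between them is uncertain.

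Of 26 genes further down the pathway, 2 rose and 5 fell in CD4 cells, and 3 rose and 7 fell in CD8 cells, with medians of -0.025 and -0.20. For comparison, the share over all genes was 11.1% higher and 7.75% lower in CD4 cells and 10.5% each way in CD8 cells. Against control CD8 replicates 4 to 6 alone 12 of the 26 fell. Grap2, the adaptor Gads that links SLP-76 to Lat, fell by 0.49 ± 0.10 in CD4 and 0.65 ± 0.08 in CD8 cells (adjusted p of 0.00461 and 0.000508, edgeR). Rasgrp1, an activator of Ras, fell by 0.61 ± 0.09 in CD4 cells. It was also lower in CD8 cells, with 227 to 248 CPM in L-gp130 and 284 to 387 CPM in control libraries, with no overlap. Cd2, an adhesion receptor, fell by 0.62 ± 0.07 in CD8 cells. Map4k1, the kinase HPK1 that acts against SLP-76 signalling, rose by 0.37 ± 0.06 in CD4 and 0.58 ± 0.08 in CD8 cells. Sh2d2a, an adaptor that binds Lck, rose by 0.42 ± 0.07 in CD4 and 0.31 ± 0.08 in CD8 cells (adjusted p of 0.00193 and 0.0172, edgeR).

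Of 18 genes that restrain TCR signalling, 7 rose and 1 fell in CD4 cells, and 3 rose and 3 fell in CD8 cells, with medians of 0.18 and -0.04. The same shares over all genes apply, and the CD8 counts lie near them. Lax1, a membrane adaptor related to Lat in build, rose by 0.50 ± 0.07 in CD4 and 0.45 ± 0.07 in CD8 cells (adjusted p of 0.000317 and 0.00160, edgeR). Ptpn22, a phosphatase that acts on Lck and Zap70, rose by 0.54 ± 0.10 in CD4 and 0.25 ± 0.08 in CD8 cells. Ubash3b, a phosphatase that acts on Zap70, rose by 0.47 ± 0.07 in CD4 cells, and Sla, an adaptor that promotes loss of CD3 zeta and the receptor, rose by 0.24 ± 0.08 in CD8 cells. Sla was not particular to CD8 cells: it had 225 to 336 CPM in L-gp130 and 170 to 218 CPM in control CD4 libraries, with no overlap. Ubash3b overlapped in CD8 cells, with 52.1 to 62.2 CPM in L-gp130 and 48.7 to 58.0 CPM in control libraries. Pag1, the membrane adaptor that holds the Lck inhibitor Csk, fell by 0.71 ± 0.09 in CD4 and 0.57 ± 0.13 in CD8 cells. Sit1 and Cbl, a membrane adaptor and a ubiquitin ligase, fell by 0.73 ± 0.10 and 0.70 ± 0.16 in CD8 cells. The 2 sets of controls differed for Cbl, which had 179 to 203 CPM in L-gp130 CD8 libraries, against 241 to 265 CPM in control replicates 1 to 3 and 343 to 385 CPM in replicates 4 to 6. Cbl fell by 0.41 against the first set and by 0.94 against the second, and Pag1 by 0.34 and 0.77 (adjusted p under 0.05 in each, edgeR). Ptpn22 did not pass against replicates 1 to 3 (adjusted p = 0.0637, edgeR), nor Sla against replicates 4 to 6 (adjusted p = 0.109). Genes on this list therefore moved in both directions. In the test of the difference between cell types, Cd8b1 (0.67), Cd2 (0.49) and Bcl10 (0.38), an adaptor on the way to NF-kappaB, were the genes of these lists that passed, all with the higher effect in CD4 cells. For Cd8b1 this sets the fall in CD8 cells beside a low level in CD4 cells. It had 17.5 to 33.5 CPM in L-gp130 CD4 and 19.6 to 24.0 CPM in control CD4 libraries. In CD8 libraries it had 591 to 718 and 871 to 1176 CPM in the same order.

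**Figure D4:**
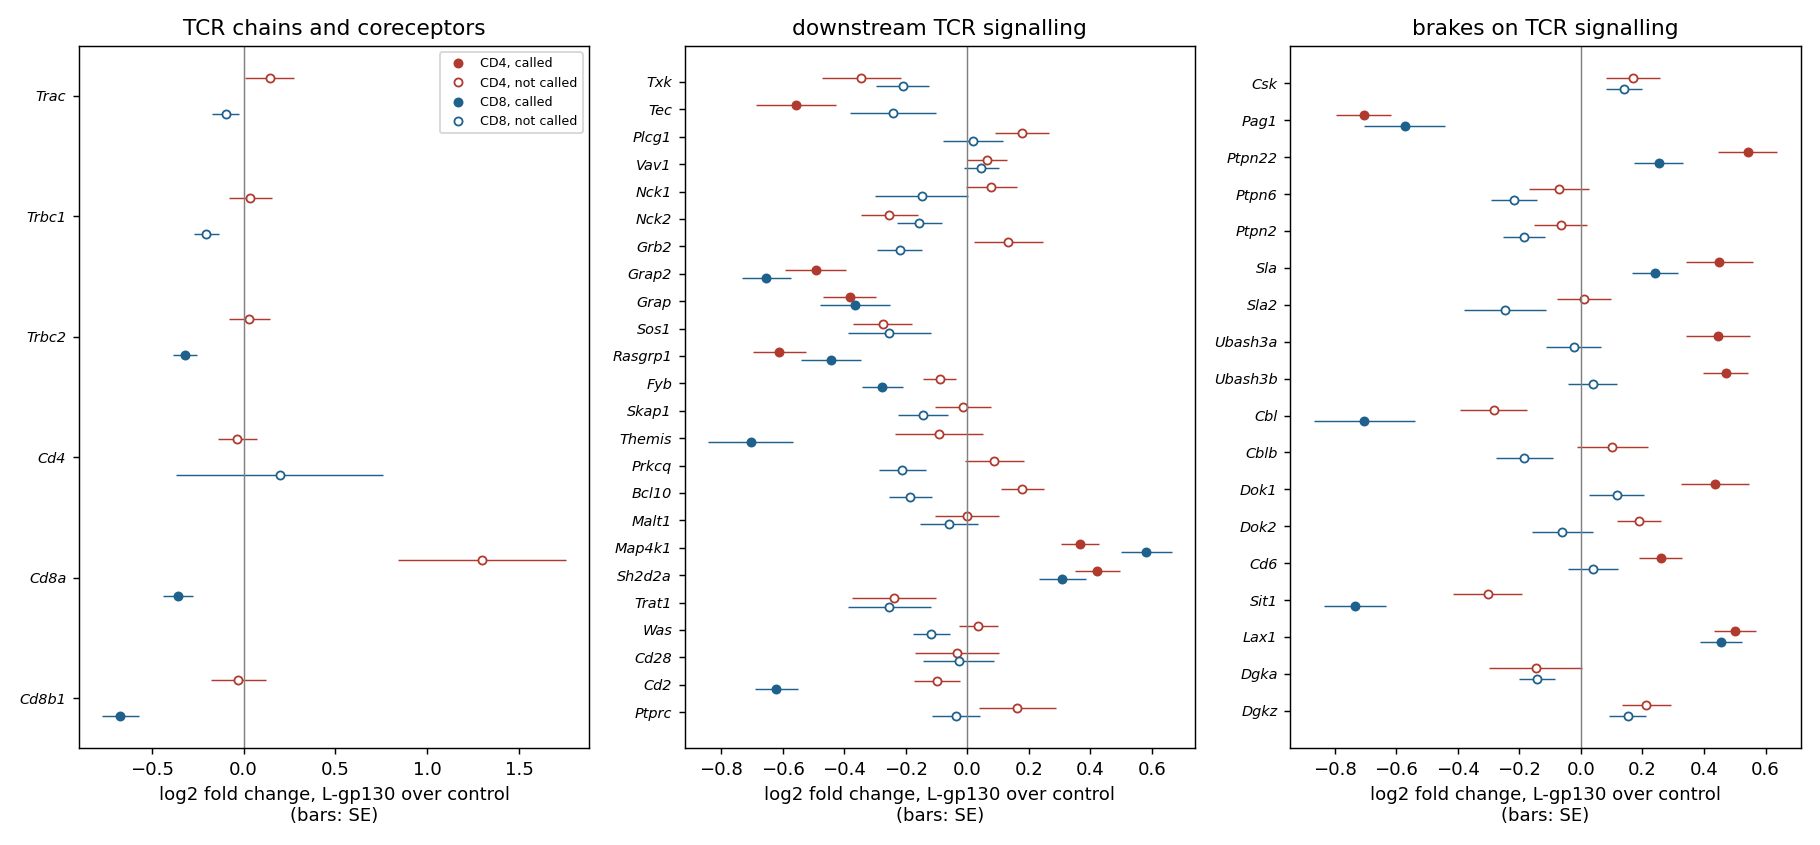
Log2 fold change of L-gp130 over control (x axis) for the genes reported from 3 pathway lists (y axis) in CD4 cells (upper, red) and CD8 cells (lower, blue), with bars of 1 SE and filled points at an adjusted p under 0.05. Grap2 and Pag1 are below 0 and Map4k1, Sh2d2a and Lax1 above 0 in both cell types.

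The transcript makeup of the 10 genes was compared with the authors' Salmon estimates, of which 0.126% of 33285 transcripts were called in CD4 and 0.267% of 33699 in CD8 cells. Of the 10 genes' transcripts with a share of at least 10% in any group, 0 were called in either cell type by edgeR's diffSpliceDGE, and 1 was at an unadjusted p under 0.05 in each (Lck-201 in CD4 and Fyn-205 in CD8 cells); limma's diffSplice called 0 in CD4 and 1 in CD8 cells. The share of Lck-201, which starts at the proximal promoter 15250 bases downstream of the distal one, was 6.11% to 7.47% of Lck TPM in L-gp130 CD4 and 9.50% to 10.8% in control CD4 libraries. The groups did not overlap, yet the usage test gave an adjusted p of 1. Lck-202, which starts at the distal promoter used in mature T cells, made up 75.5% ± 4.0 of Lck TPM in L-gp130 CD4 and 69.1% ± 3.7 in control CD4 libraries (SD, n = 6 each), with overlap.

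Fyn-205 made up 27.7% to 30.2% of Fyn TPM in L-gp130 CD8 libraries, against 9.80% to 26.2% in control CD8 libraries. All 3 L-gp130 libraries were above the controls, and the adjusted p was 0.155 by diffSpliceDGE and 0.0239 by limma. The 2 sets of control CD8 libraries also differed in this share. It was 9.80% to 18.7% in replicates 1 to 3 and 20.4% to 26.2% in replicates 4 to 6, near the L-gp130 libraries. In CD4 cells Fyn-205 held 37.7% to 40.7% in L-gp130 and 31.6% to 39.4% in control libraries, with overlap. Fyn-201, the other main form, held 46.6% to 48.7% in CD8 libraries of L-gp130 mice, against 50.5% to 62.8% in those of controls. Both forms use the kinase domain exon typical of T cells. For Cd3d, Cd3e, Cd3g, Cd247, Zap70, Lat and Cd5, 1 protein-coding transcript made up most of the gene in every group, with mean shares of 77.5% to 96.7% (Lat-201 in L-gp130 CD8 and Cd3d-201 in control CD8 cells). Lcp2 was split between Lcp2-201, with 56.5% in L-gp130 and 58.7% in control CD4 cells, and Lcp2-202, with 38.2% and 37.7% in the same groups.

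The alternative exons of Fyn are shown because they tell the T cell form from the brain form of the kinase. They were read from GENCODE M21 on GRCm38, plus strand, and are printed in lower case with nothing marked. Of the TPM of Fyn transcripts that hold either exon, the brain exon took 5.18% to 7.57% in CD4 libraries of L-gp130 mice and 5.24% to 9.39% in those of controls. The CD8 ranges were 6.34% to 8.79% for L-gp130 mice and 4.09% to 8.32% for controls, and all these ranges overlap. Fyn-206 was counted with neither exon. Its mean share of Fyn TPM was 6.22% in L-gp130 and 6.57% in control CD4 cells. In CD8 cells that share was 13.1% and 15.2% in the same order.
Fyn T cell exon (chr10:39529919-39530074, plus strand): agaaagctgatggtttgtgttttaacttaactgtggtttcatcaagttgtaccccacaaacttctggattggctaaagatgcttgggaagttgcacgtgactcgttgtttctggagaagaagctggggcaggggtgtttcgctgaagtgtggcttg
Fyn brain exon (chr10:39529437-39529601, plus strand): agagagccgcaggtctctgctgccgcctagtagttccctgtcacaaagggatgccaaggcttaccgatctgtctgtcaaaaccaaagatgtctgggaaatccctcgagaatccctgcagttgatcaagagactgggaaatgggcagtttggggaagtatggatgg

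**Figure D5:**
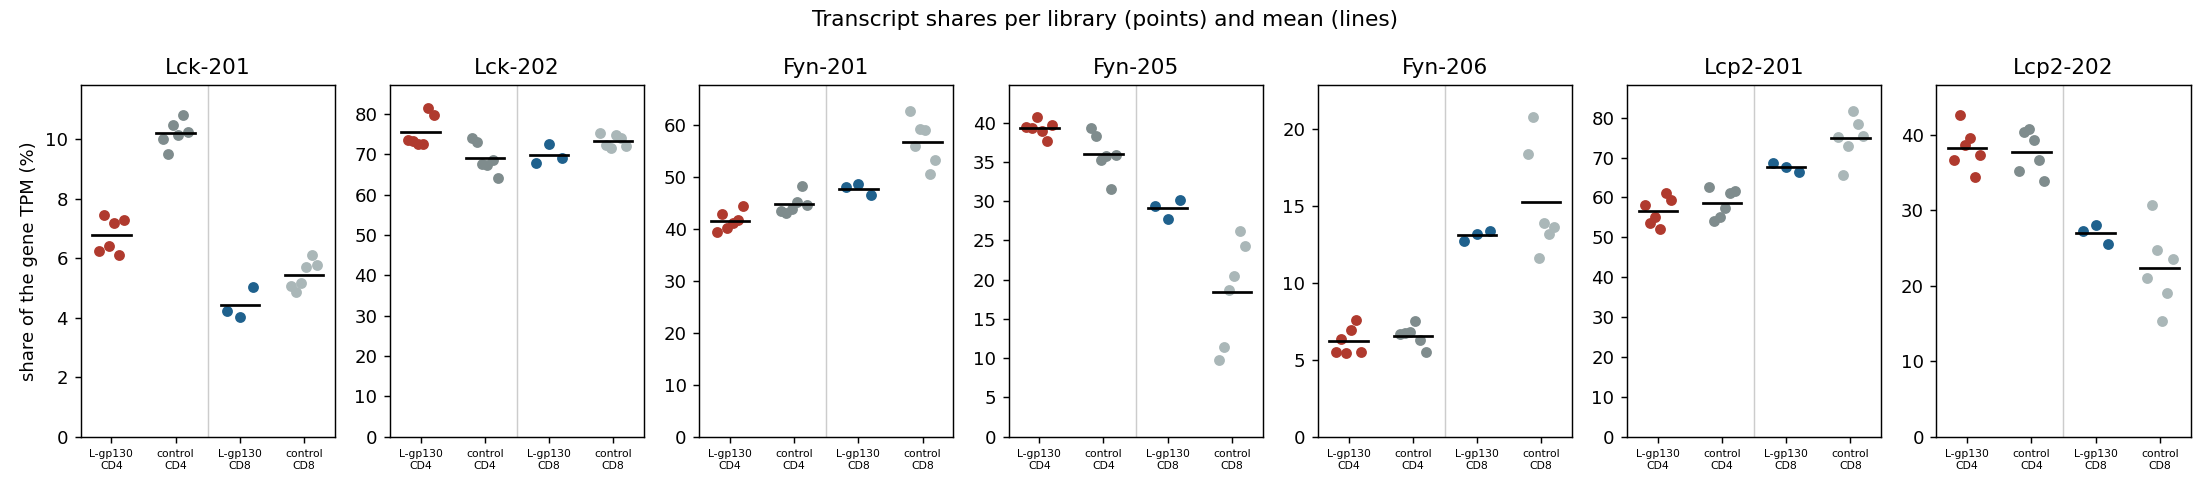
Share of the gene's TPM (y axis, percent) held by 7 transcripts of Lck, Fyn and Lcp2 in each library (points), with group means as lines, in L-gp130 CD4, control CD4, L-gp130 CD8 and control CD8 cells (x axis). Lck-201 is lower in all L-gp130 CD4 libraries than in their controls, and Fyn-205 is higher in all L-gp130 CD8 libraries than in theirs.

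Cd3g and Cd3d lie head to head on chromosome 9 with starts 1355 bases apart on opposite strands, and both fell in CD8 cells together with Cd247 on chromosome 1. Their promoters, and that of Lcp2, which rose in both cell types, are shown for this reason, from 250 bases before to 50 bases after the start (RefSeq, GRCm38.p6). Capitals mark motif matches on either strand. The motif searched for STAT factors, which gp130 activates, was TTCNNNGAA. For ETS factors the search used GGAAGT and for RUNX factors it used the letters TGTGGT. For GATA factors, which act in many blood lineages, the letters were AGATAA.
Cd3d promoter (chr9:44981536-44981835, plus strand): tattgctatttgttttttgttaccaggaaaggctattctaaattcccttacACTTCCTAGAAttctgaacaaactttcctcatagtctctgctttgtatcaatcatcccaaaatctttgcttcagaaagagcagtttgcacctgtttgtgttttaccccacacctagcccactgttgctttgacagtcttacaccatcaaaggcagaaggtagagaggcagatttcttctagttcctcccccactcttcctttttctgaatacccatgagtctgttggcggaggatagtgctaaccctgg
Cd3g promoter (chr9:44980382-44980681, minus strand): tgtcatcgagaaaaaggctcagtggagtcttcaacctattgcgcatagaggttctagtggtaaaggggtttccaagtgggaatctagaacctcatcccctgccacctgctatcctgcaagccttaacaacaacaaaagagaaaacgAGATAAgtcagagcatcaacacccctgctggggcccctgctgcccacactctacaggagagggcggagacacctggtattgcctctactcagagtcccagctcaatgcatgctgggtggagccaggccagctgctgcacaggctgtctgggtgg
Cd247 promoter (chr1:165788431-165788730, plus strand): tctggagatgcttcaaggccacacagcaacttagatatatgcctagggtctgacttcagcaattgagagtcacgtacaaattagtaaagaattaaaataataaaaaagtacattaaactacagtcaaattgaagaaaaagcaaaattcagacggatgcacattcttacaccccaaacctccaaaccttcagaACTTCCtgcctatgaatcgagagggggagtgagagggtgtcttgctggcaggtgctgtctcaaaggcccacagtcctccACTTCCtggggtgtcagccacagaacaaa
Lcp2 promoter (chr11:34046678-34046977, plus strand): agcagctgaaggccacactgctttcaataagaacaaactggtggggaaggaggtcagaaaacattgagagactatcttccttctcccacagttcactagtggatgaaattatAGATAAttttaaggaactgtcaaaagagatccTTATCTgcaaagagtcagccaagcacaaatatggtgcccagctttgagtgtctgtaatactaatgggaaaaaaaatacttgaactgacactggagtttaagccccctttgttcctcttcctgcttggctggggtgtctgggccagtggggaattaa
The STAT motif was found in 1 of the 13 promoters of the 10 genes, that of Cd3d at 197 bases before the start (-197), where it overlaps the ETS match at -199. Of all 32851 promoters, 8.3% held it. The ETS motif was in 7 of 13, against 23.8% of all promoters, RUNX in 3 of 13 against 16.8%, and GATA in 2 of 13 against 11.2%. A match is only a run of letters in this window.

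The genes whose levels went most closely with the mean of Cd3d, Cd3e and Cd3g across libraries, after the genotype means were subtracted, were Limd2 (r = 0.981), Ddx10 (0.977), Ywhaz (0.973), Bicdl1 (0.972) and Klk8 (0.966) over 12 CD4 libraries and 6171 genes. Over 9 CD8 libraries and 5943 genes they were Ezr (0.964), Matr3 (0.957), Eif3e (0.955), Mef2a (0.954) and Paip2 (0.953). The 2 sets of 5 had 0 genes in common. These values are descriptions over few libraries, which also differ in depth and in other cells. L-gp130 CD4 replicate 1, the lowest of its group for Cd3d, Cd3e and Cd3g, can weigh heavily in the CD4 values. They were not computed without it.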

How the data were processed

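Polyadenylated RNA was sequenced in 21 unstranded, paired-end libraries. Per the submitters' processing notes the tools were cutadapt 3.4, Trimmomatic 0.39, Salmon 1.5.2 and edgeR 3.34.1 with build GRCm38; roles, order and annotation release were not given in the sources used here. Estimated counts for every gene were deposited in 1 table for each cell type. Per the file headers, the authors also deposited Salmon's estimated counts (reads) and TPM per transcript. The deposited normalised tables were not used.

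Rounded counts entered edgeR 4.0.16 (R 4.3.3): filterByExpr with a minimum count of 10, TMM and its robust 2-sided quasi-likelihood F test. P-values were adjusted by Benjamini-Hochberg over all genes and called under 0.05, with labelled sex as covariate and 1 fit for each cell type. The contrasts across cell types used Salmon reads summed per gene over all 21 libraries, since the gene tables were made separately. SE was obtained by dividing the log2 fold change by the root of F. Levels are TMM-normalised CPM with SD. Intervals are at 95%, from the SE and the normal distribution, and are therefore somewhat narrower than the F test implies. Transcript usage was tested with diffSpliceDGE on transcripts of all genes. Symbols and positions came from GENCODE mouse release 21. The exon and ITAM sequences came from its transcripts and the promoters from RefSeq.

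The 10 genes and the lists were chosen with earlier results of these data known. Named are all 10 genes, and from each of the pathway lists up to 3 called genes per direction and comparison by smallest adjusted p. For the context lists, sums and up to 2 called genes (C1q genes: 3) are given for the genotype comparisons only. Their 2 highest genes are left out, a departure from the rule. Counts of the context lists are given for the genotype comparisons, and for some lists also in comparisons across cell types. Some genes of the pathway lists that the rule takes enter the counts and medians but are not reported here. Of the transcripts with a share of at least 10%, some of those of Lck, Fyn and Lcp2 were described after their values were seen, and those of the other genes are summarised. Shares of Lck-207, and those of Lck and Lcp2 transcripts in CD8 cells, are not given in the text. Scripts were tested on simulated data, with 1 spread for all genes. Of genes changed by a fold of 1.3, 0.5% were recovered in CD4 cells, 4% in CD8 cells and 0% in the test of the difference. At a fold of 2 these shares were 99%, 98.5% and 86%. A gene that did not pass can thus hold a small change. These shares apply to 200 changed genes at that 1 spread and do not give the recovery of any of the 10 genes. In the data Fyn was called in CD4 cells at a fold of 1.316. In the test of the difference Fyn and Lcp2 were called at 1.328 and 1.3, and Cd3g was not called at 1.301. As alternatives, DESeq2 1.42.0, limma 3.58.1, RLE size factors, other filters, no sex covariate, 1 sex alone, thinned depth, reads summed per gene, joined tables, sets of controls, a replicate block and leaving out libraries were tried. Precision covers counting error and the spread between these mice. No pair of libraries looked like 1 library deposited again, with a lowest chi-square per gene of 9.75.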

Additional observations from a re-analysis of the deposited data

Results flagged for a closer look

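Of 30 groups of 6 libraries tested for a far sample, 2 held one, and chance flags about 1 in 20 groups. Cd3d in control CD4 replicate 1, at 325.3 CPM, stood far above the other control CD4 libraries (284 to 299 CPM). Cd3e in control CD8 replicate 6, at 418.1 CPM, stood far above the other control CD8 libraries (379 to 392 CPM). The L-gp130 effect of 2 genes differed between CD4 and CD8 cells by the test of the difference itself: that of Fyn was higher in CD4 cells by 0.41 on the log2 scale (adjusted p = 0.0128, edgeR), and that of Lcp2 by 0.38 (adjusted p = 0.00816).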

How the results depend on the processing

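In CD4 cells, where 2836 genes were called, 19 were called in males alone (4 L-gp130 libraries against 1 control), with 0 of the 10 genes higher and 0 lower. Without the sex covariate 5 of the 10 were higher, and in females alone 0 were lower. In CD8 cells, with 2996 genes called, females alone (1 against 2 libraries) gave 133 genes, with 0 of the 10 higher and 0 lower, and males alone gave 1740 genes with 0 of the 10 higher. Of the 10, 0 were higher in CD8 cells with no filter or with controls 1 to 3 alone, and 2 with controls 4 to 6 alone. In the test of the difference, with 545 genes called, DESeq2 called 955 genes and 353 were called on the joined gene counts. With no filter, 3 of the 10 were lower in CD4 than in CD8 controls, and the median of all genes in that contrast shifted to 0.14 (log2). Limma called 1 transcript of the 10 genes in CD8 cells. The causes were not tested, beyond the fewer libraries in the fits of 1 sex.

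Leaving out 1 library at a time gave 1411 to 3642 genes called in CD4 cells (lowest without L-gp130 replicate 6, then 1529 without control replicate 1), 1374 to 2967 in CD8 cells (lowest without L-gp130 replicate 1; 1865 and 1554 without replicates 2 and 3) and 236 to 984 in the test of the difference (lowest without L-gp130 CD8 replicate 1, 328 without CD8 replicate 2, 363 without L-gp130 CD4 replicate 6, highest without L-gp130 CD4 replicate 1). Of the 10 genes, 0 to 1 were then lower in CD4 cells, 0 to 1 higher and 1 to 3 lower in CD8 cells, 0 to 5 higher in the test of the difference, and 0 to 2 lower in L-gp130 CD4 than in L-gp130 CD8 cells. Among their CD8 transcripts 0 to 1 were called, with Fyn-205 passing without control replicate 5.

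Signs turned only for values that were not called. With 1 library left out, log2 changes ranged from -0.005 to 0.172 for Cd3d, -0.042 to 0.076 for Cd3e and -0.026 to 0.117 for Cd3g in CD4 cells, from -0.082 to 0.074 for Lat in CD8 cells and from -0.037 to 0.053 for Cd3e between control cell types. In CD4 males alone Cd3d was -0.137, Cd3e -0.13, Cd3g -0.164 and Lck -0.109, and with no filter Cd3e was -0.009. In CD8 cells Lat was -0.003 with no filter, -0.086 in males alone, -0.072 with controls 1 to 3 alone and -0.008 on reads summed per gene, where Fyn was -0.03. Transcript usage without 1 library ranged in CD4 cells from -0.012 to 0.017 (Cd3e-201), -0.008 to 0.013 (Cd3g-201), -0.015 to 0.004 (Cd5-201), -0.193 to 0.233 (Cd5-202), -0.021 to 0.011 (Lat-201) and -0.203 to 0.063 (Lck-207), and in CD8 cells from 0 to 0.008 (Lck-202). By limma, Lck-207 was 0.021, Cd3d-201 -0.129 and Cd5-202 -0.017 in CD4 cells and Lck-202 -0.005 in CD8 cells. Without the sex covariate, Cd3e-201 was 0.002 and Cd5-202 -0.004.

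Replicate numbers did not pair the libraries: same-numbered libraries correlated at -0.29 to 0.219 in CD4 and -0.026 to 0.212 in CD8 cells. With the replicate block, 0 of the 10 genes were lower in CD4 cells (Cd247 -0.47, adjusted p = 0.0554, edgeR; Fyn 0.30, adjusted p = 0.0627), 0 were higher in CD8 cells, and the test of the difference called 137 genes and 0 of the 10. Cd3e was -0.136, Cd3g -0.079 and Lck -0.06 in CD4 and Lat -0.077 in CD8 cells under the block. Under the block the usage values in CD4 cells were 0 for Lat-201, 0.001 for Cd3g-201, 0.005 for Cd3e-201 and -0.004 for Cd5-202, and 1 CD8 transcript, Fyn-205, was called. In CD8 cells the block replaced the sex term.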
